A study of Mus musculus with 8 samples.

Results

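The genes described are 9 regulators of early brain patterning, namely the secreted signals Wnt1 and Fgf8, the homeobox gene Gbx2 and the paired box genes Pax2, Pax3, Pax5, Pax6, Pax7 and Pax8. They were chosen by name, as genes of the midbrain-hindbrain organizer and its Pax factors, and are 9 of the 21938 protein-coding genes annotated on the autosomes and sex chromosomes of mm10. Their open chromatin was read from ATAC-seq, in which a transposase inserts adapters into accessible DNA, so that open regions gather many sequenced fragments. Peak lists of 8 libraries of SN4741 cells were used. SN4741 is a wild-type-labelled mouse line, described as clonal and labelled as neural precursor cells, that was derived from embryonic substantia nigra carrying a temperature-sensitive SV40 T antigen under the tyrosine hydroxylase promoter. The study found it to be polyploid, with a chromosome set that varied between cells. There were 4 libraries from cells at the permissive temperature of 37 °C in 10% serum, and 4 from cells held for 48 h at the non-permissive temperature of 39 °C in 0.5% serum, so temperature and serum cannot be told apart. Each library came from 50000 cells. Replicates are known only by number, so p-values measure the spread between these samples, which may be technical.

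The organizer is a band of neuroepithelium at the junction of midbrain and hindbrain, where Wnt1 is made on the midbrain side and Fgf8 on the hindbrain side. Gbx2 is a hindbrain repressor that sets this border against Otx2, while Pax2, Pax5 and Pax8 form one subfamily that acts at and around the organizer. Pax3 and Pax7 form another subfamily, of the dorsal neural tube, neural crest and muscle precursors, and Pax6 marks the forebrain, eye and parts of the spinal cord. Midbrain dopaminergic neurons arise next to the organizer and depend on its signals. Open chromatin at a gene is not a measure of its transcription, and RNA was not analysed here.

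The sequences the results turn on are shown first. For 5 members, the 200 bases upstream of an annotated start are given on the strand of the gene, 5′ to 3′, with each CpG in capitals, because some of these starts lay under a peak and others did not. They are from RefSeq on GRCm38.p6. The Wnt1 start (chr15:98789657-98789856, plus strand) and the Pax2 start (chr19:44755552-44755751, plus strand) were open in all 8 libraries, whereas the upstream starts of Pax5 (chr4:44710695-44710894, minus strand), Pax6 (chr2:105668696-105668895, plus strand) and Pax8 (chr2:24475600-24475799, minus strand) were under a peak in 0 of 8.
Wnt1 upstream: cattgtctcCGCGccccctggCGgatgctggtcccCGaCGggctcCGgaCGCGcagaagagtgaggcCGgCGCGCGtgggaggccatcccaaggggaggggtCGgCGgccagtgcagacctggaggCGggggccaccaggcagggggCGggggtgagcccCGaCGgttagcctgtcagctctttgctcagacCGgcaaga
Pax2 upstream: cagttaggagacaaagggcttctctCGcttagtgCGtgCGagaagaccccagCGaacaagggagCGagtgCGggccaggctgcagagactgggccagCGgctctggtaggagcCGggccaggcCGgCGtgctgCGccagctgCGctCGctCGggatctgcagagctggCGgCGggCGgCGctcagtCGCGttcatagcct
Pax5 upstream: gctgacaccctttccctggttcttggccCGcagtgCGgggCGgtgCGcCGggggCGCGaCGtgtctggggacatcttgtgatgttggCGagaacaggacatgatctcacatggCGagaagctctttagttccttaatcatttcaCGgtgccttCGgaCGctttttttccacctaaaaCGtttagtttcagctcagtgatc
Pax6 upstream: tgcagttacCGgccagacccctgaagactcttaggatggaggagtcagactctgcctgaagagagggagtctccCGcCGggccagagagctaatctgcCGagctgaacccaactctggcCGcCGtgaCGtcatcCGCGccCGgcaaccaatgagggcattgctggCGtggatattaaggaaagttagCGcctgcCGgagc
Pax8 upstream: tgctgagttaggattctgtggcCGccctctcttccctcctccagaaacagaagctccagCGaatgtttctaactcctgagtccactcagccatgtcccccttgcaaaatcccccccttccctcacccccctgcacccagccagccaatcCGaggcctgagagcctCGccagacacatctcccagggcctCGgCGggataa

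Over the 300 bases from 250 before to 50 after each start, the ratio of observed to expected CpG was 0.699 at Wnt1, 0.812 at this Pax2 start, 0.882 at Pax5, 0.698 at Pax6 and 0.288 at Pax8, with a median of 0.384 over 32841 RefSeq promoters. These 5 starts were picked for display and no test was run on them. Over the 10 starts of members in the table, the 200 upstream bases of called starts held 4 to 24 CpG and those of starts called in 0 libraries 6 to 14. The GC box GGGCGG, searched on both strands, was present in the promoters of Wnt1, Pax2, Pax5 and Pax8 and absent from that of Pax6, against 35.7% of all promoters. The table held 10 starts of 7 members and none of Pax3 or Fgf8.

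The other sequences are 201 bases centred on the summits of 5 regions away from promoters and of the open Pax8 start. They are on the plus strand of mm10. The first 4 were called in every library at 37 °C and in none at 39 °C, and the fifth ranked higher at 39 °C. Capitals mark the AP-1 motif TGANTCA, the RUNX motif TGTGGT or the homeodomain motif TAATTA, each searched on both strands.
Pax2 intron, chr19:44782131-44782331: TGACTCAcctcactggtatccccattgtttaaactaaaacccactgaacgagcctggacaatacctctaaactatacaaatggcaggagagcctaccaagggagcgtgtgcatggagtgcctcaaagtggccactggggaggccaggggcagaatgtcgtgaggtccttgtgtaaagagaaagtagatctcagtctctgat
Pax3 downstream, chr1:78070767-78070967: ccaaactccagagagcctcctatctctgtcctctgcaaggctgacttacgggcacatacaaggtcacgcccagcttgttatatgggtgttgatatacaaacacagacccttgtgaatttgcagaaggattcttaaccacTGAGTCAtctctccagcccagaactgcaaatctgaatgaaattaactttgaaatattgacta
Wnt1 upstream, chr15:98785832-98786032: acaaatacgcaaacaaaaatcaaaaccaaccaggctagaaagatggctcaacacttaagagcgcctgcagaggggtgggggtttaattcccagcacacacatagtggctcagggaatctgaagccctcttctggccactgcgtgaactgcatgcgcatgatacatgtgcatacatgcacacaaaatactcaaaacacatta
Gbx2 upstream, chr1:89940444-89940644: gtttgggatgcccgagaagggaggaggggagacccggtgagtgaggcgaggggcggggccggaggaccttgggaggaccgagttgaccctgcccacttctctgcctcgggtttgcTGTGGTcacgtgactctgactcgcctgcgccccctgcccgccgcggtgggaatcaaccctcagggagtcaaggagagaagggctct
Pax8 intron, chr2:24467248-24467448: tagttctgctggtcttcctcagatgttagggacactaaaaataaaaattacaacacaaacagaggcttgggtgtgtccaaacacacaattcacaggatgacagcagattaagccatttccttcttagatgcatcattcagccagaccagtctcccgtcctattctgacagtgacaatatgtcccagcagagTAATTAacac
Pax8 open start, chr2:24445948-24446148: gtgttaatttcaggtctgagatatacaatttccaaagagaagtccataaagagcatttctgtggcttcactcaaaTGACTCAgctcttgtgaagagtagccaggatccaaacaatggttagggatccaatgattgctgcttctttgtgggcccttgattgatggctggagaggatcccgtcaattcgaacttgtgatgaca

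The Pax2 and Pax3 regions and the open Pax8 start held 1 AP-1 match each, the Gbx2 region held 1 RUNX match and the Pax8 intron held 1 homeodomain match, while the Wnt1 region held none of them. Over 62695 distal consensus regions, defined below and with no undetermined base in the window, 34.3% held AP-1, 28.0% RUNX and 3.25% the homeodomain motif in a window of the same length.

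The caller kept 49.8 to 169 M fragments per library at 37 °C and 52.7 to 71.2 M at 39 °C (M for mega), and the lists held 74026 to 92013 and 54845 to 68410 peaks. At 37 °C replicates 1 and 4 were sequenced far more deeply than the others, and 39 °C replicate 4 had the shortest list. A longer list reaches weaker peaks, so the main counts and tests are also given with the same number of peaks, 54845, taken from the top of every list by −log10 q. That setting is referred to as equal numbers of peaks.

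All 9 members had an open promoter at both temperatures, meaning a peak within 1 kb of any annotated start in at least 2 of 4 libraries, which 67.2% of all protein-coding genes had at 37 °C and 62.9% at 39 °C. In 7 of 9 the promoter was called in all 8 libraries, against 59.9% of all genes. The exceptions were Pax5, called in 4 libraries at 37 °C and 2 at 39 °C, and Pax7, called in 3 and 2. These were the 2 of 9 members called in more libraries at 37 °C, which 7.97% of all genes were, and neither difference passed Fisher's exact test (two-sided, p = 0.429 and 1, both 1 after Benjamini-Hochberg adjustment over all genes). An open promoter was left to 8 members at 37 °C and 7 at 39 °C with equal numbers of peaks, against 62.4% and 60.8% of all genes.

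Promoter peaks were compared by rank, since peak heights were not scaled for depth. The percentile of a promoter is the rank of its highest peak within its own list by −log10 q, where 100 is the highest peak and 0 means that none was called. The percentiles of 7 of 9 members, all but Pax7 and Pax8, were lower in every library at 39 °C than in any at 37 °C, as they were for 35.2% of all genes (exact permutation test, two-sided, p = 0.0286 each, the smallest that 4 against 4 libraries can give, adjusted p = 0.0804). With equal numbers of peaks this held for Pax5 alone, against 10.3% of all genes, and Pax8 was higher in every library at 39 °C, as were 4.73% (both exact permutation p = 0.0286, adjusted p = 0.190). After Benjamini-Hochberg adjustment of the exact permutation test, 0 of 21938 genes passed in either setting, while 7797 and 3302 had an unadjusted p under 0.05.

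**Figure D1:**
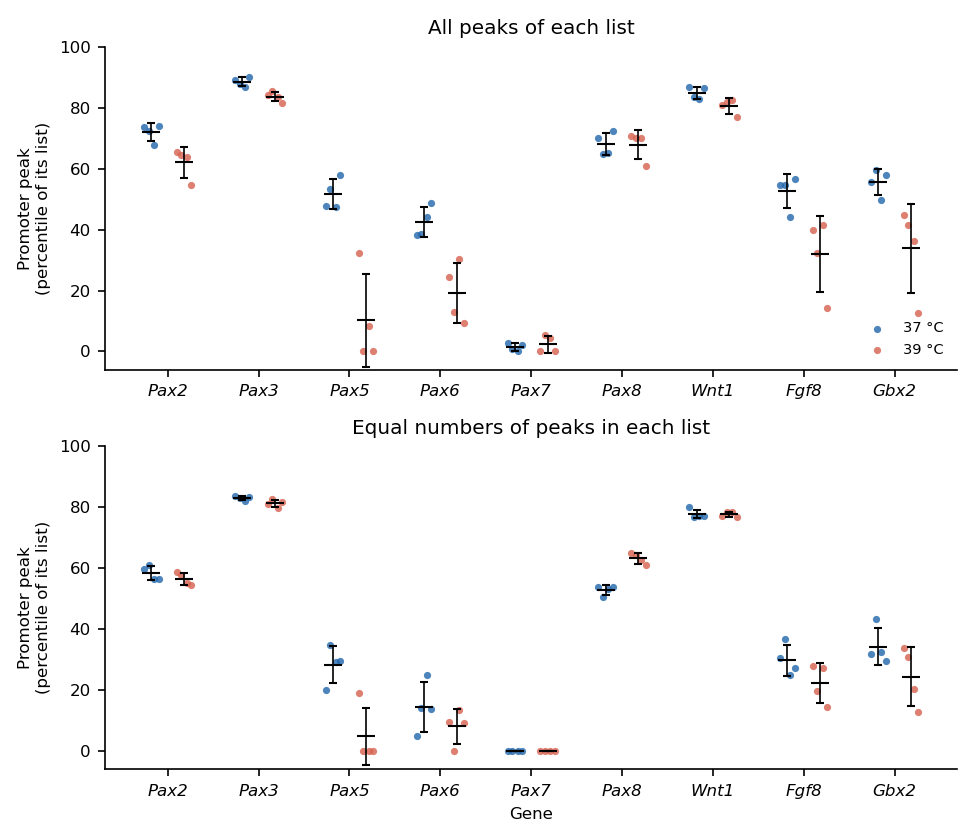
Percentile of the highest promoter peak of each of the 9 genes within its list (vertical axis, 0 where no peak was called), with 1 point per library, blue for 37 °C and red for 39 °C, and black marks for the mean and SD of 4 libraries. With all peaks (top) the groups are apart in 7 genes, and with equal numbers of peaks (bottom) only Pax5 and Pax8 are apart, in opposite directions.

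Away from promoters, a peak was counted as distal to a member when it overlapped the gene body or the 50 kb on either side and lay further than 1 kb from the start of any gene. Distal peaks were fewer in every library at 39 °C than in any at 37 °C for 3 of 9 members, Pax2, Pax3 and Gbx2, and for 21.7% of all genes (exact permutation p = 0.0286 each, adjusted p = 0.131). This was so for 0 of 9 with equal numbers of peaks, against 4.18% of all genes. The median over members of the ratio of 39 °C to 37 °C was 0.671, against 0.714 over all genes, and with equal numbers of peaks 0.977 against 1.

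The length of a window covered by peaks, which also reflects peak width, was lower in every library at 39 °C for 6 of 9 members, Pax2, Pax5, Pax6, Wnt1, Fgf8 and Gbx2, against 35.4% of all genes (exact permutation p = 0.0286 each, adjusted p = 0.0804). The same 6 except Pax2 were lower with equal numbers of peaks, 5 of 9 against 28.1% of all genes. The median ratio of 39 °C to 37 °C was 0.645 over members and 0.734 over all genes, and 0.733 against 0.807 with equal numbers of peaks. The exact permutation test with Benjamini-Hochberg adjustment passed 0 genes for distal peaks or covered length, with 4800 and 7800 genes at an unadjusted p under 0.05.

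**Figure D2:**
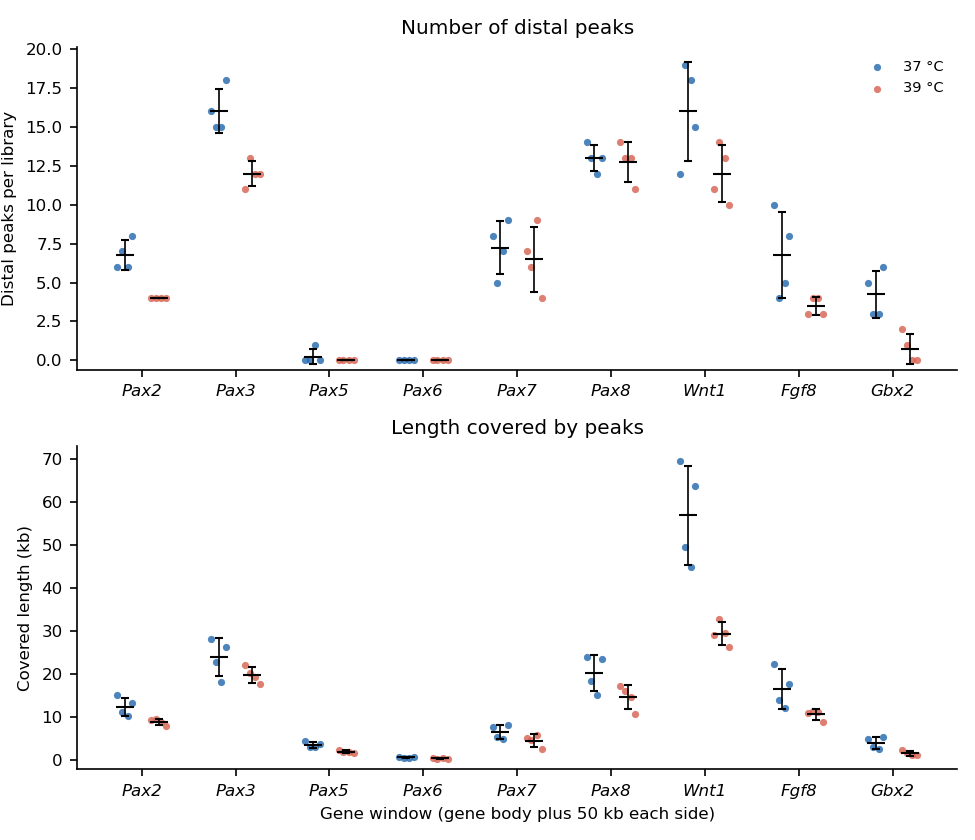
Number of distal peaks (top) and kb covered by peaks (bottom) in the window of each of the 9 genes, with 1 point per library, blue for 37 °C and red for 39 °C, and black marks for the mean and SD of 4 libraries. The Wnt1 window stands above the others in covered length, at 44914 to 69408 bp at 37 °C and 26356 to 32763 bp at 39 °C, and Pax6 has no distal peak in any library.

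Merging the peaks of all libraries gave 92 regions called in at least 2 libraries (consensus regions) in the 9 windows, of which 11 were promoters of the members, 15 were promoters of other genes and 66 were distal. All 8 libraries called 53 of them, or 57.6%, against 52.9% of the 84777 consensus regions of the genome. All 4 libraries at 37 °C and none at 39 °C called 10 regions, or 10.9%, against 6.04% in the genome, and no region was restricted to 39 °C, against 0.314%. Each of the 10 was distal, making 15.2% of the 66 distal regions, against 6.24% of all distal regions. With equal numbers of peaks the windows held 65 consensus regions. Of these, 2, near Pax3 and Gbx2, were restricted to 37 °C, against 2.67% of all consensus regions at that setting, and 1, in Pax8, to 39 °C, against 1.92%. Of the 92 regions, 85 had the higher mean percentile at 37 °C and 7 at 39 °C, while 89.9% of all consensus regions were higher at 37 °C. Percentiles of single regions below are with all peaks unless equal numbers of peaks are named.

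**Figure D3:**
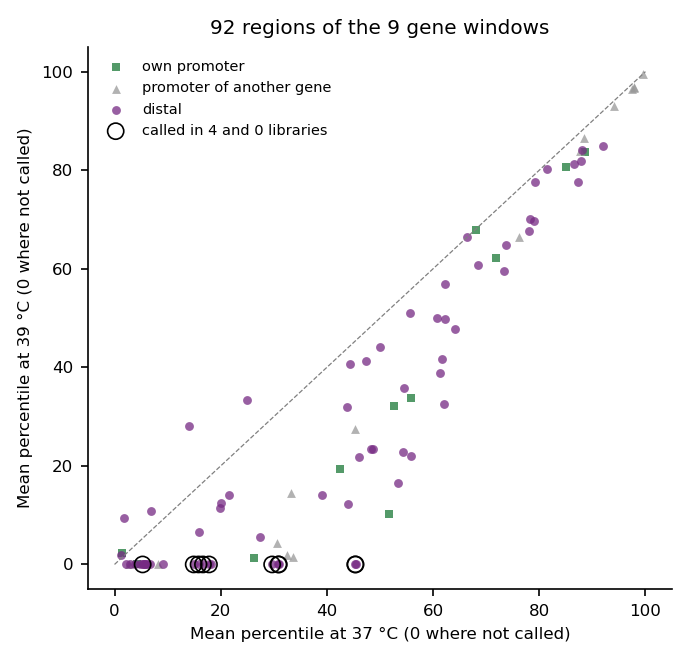
Mean percentile at 37 °C (horizontal) and 39 °C (vertical) of the 92 regions of the 9 windows, with squares for promoters of the 9 genes, triangles for promoters of other genes and circles for distal regions. The dashed line marks equal values, 85 regions lie below it (89.9% of all consensus regions do), and the ringed circles are the 10 distal regions called in 4 libraries at 37 °C and 0 at 39 °C.

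**Figure D4:**
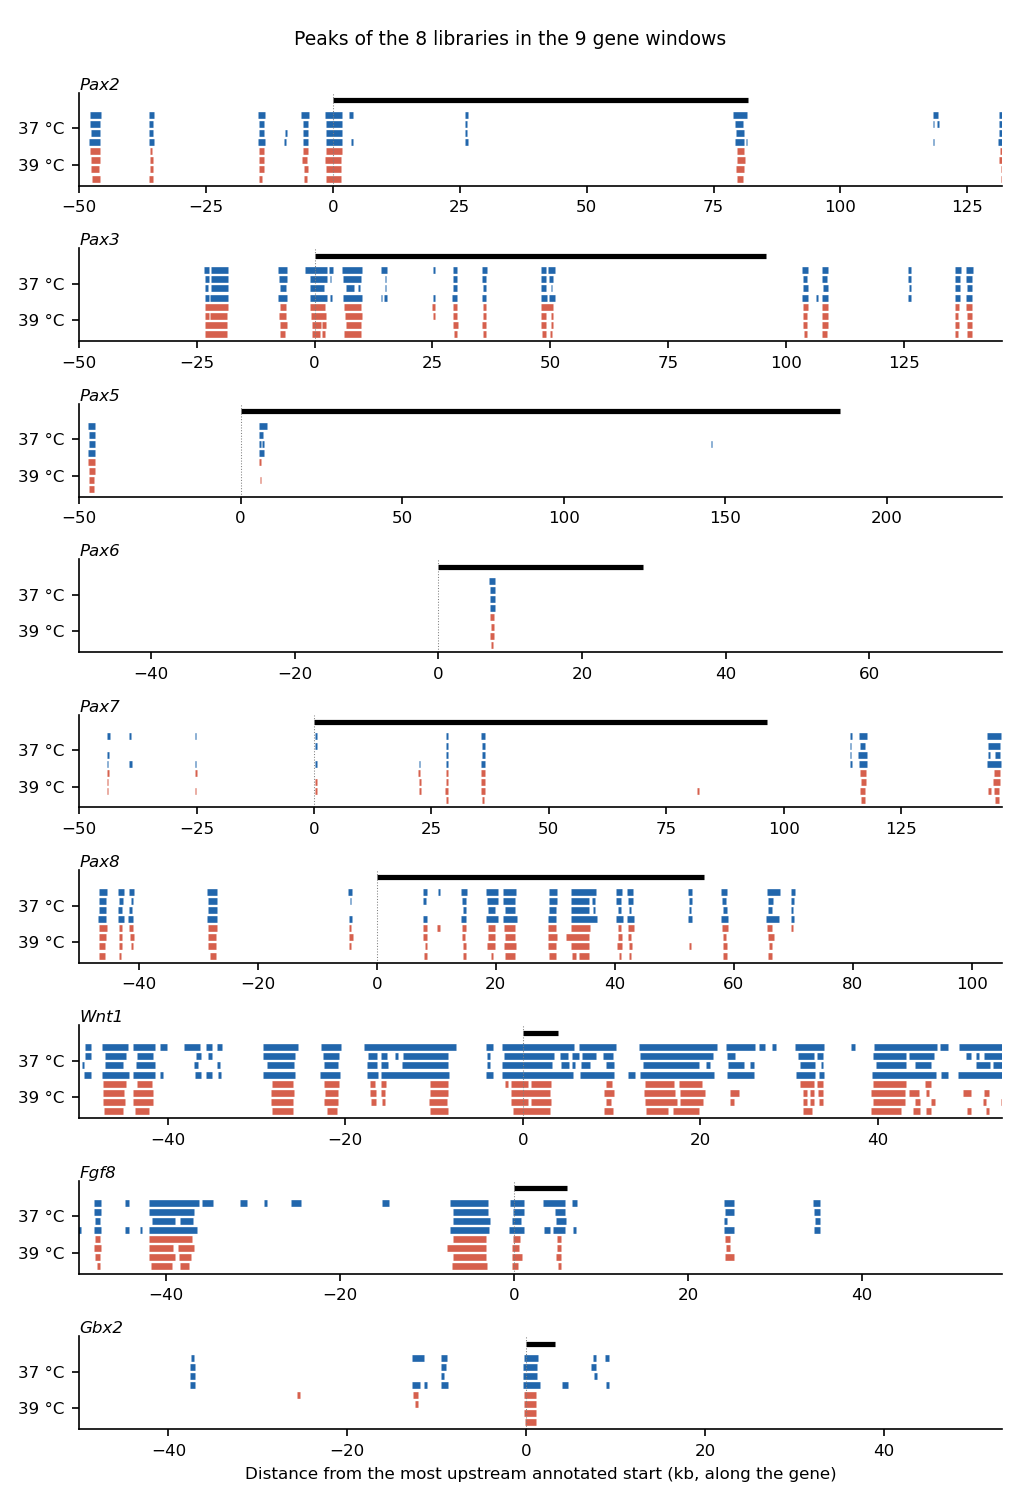
Peaks of the 8 libraries (one track each, replicate 1 on top within each temperature, blue for 37 °C and red for 39 °C) along the 9 gene windows, drawn against the distance in kb from the most upstream annotated start, with the gene as a black bar. The Pax5, Pax6 and Pax8 starts at 0 are bare of peaks, and the Wnt1 window is the most densely covered.

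Wnt1, the organizer signal of the midbrain side (ENSMUSG00000022997.9, chr15:98789857-98793837, plus strand), had the most covered window of the 9, promoters of other genes included. At 37 °C its promoter percentiles were 87.0, 83.5, 83.04 and 86.4 in replicates 1 to 4, and at 39 °C they were 81.0, 81.9, 82.7 and 76.9. The groups did not overlap, but with equal numbers of peaks the means were 77.8 ± 1.45 and 77.8 ± 0.831 (SD, n = 4 each; exact permutation p = 1). The promoter peak was 8067, 5638, 5578 and 7965 bp wide at 37 °C and 1855, 4413, 1859 and 4199 bp at 39 °C. It was narrower in every library at 39 °C, as were the promoter peaks of Pax5, Pax6 and Gbx2 and of 17.1% of all genes (exact permutation p = 0.0286, adjusted p = 0.165). Part of this was a matter of splitting, because peaks covered 4492, 4413, 4058 and 4199 bp of the merged promoter region at 39 °C, including the replicates with a narrow peak, against 8067, 7225, 6795 and 7965 bp at 37 °C.

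Peaks covered 69408, 49572, 44914 and 63607 bp of the Wnt1 window at 37 °C and 29031, 32763, 29569 and 26356 bp at 39 °C. The lowest library at 37 °C was above the highest at 39 °C, and so it was with equal numbers of peaks, where the mean was 47188 ± 11305 bp at 37 °C and 26302 ± 469 bp at 39 °C (n = 4 each, SD; exact permutation test p = 0.0286, adjusted p = 0.0994, which does not pass 0.05). The window was 54.7% covered at 37 °C, more than that of 98.4% of all genes, and 28.3% covered at 39 °C. Of its 19 consensus regions, 7 were promoters of other genes. Those at Arf3, at Wnt10b, at Ddn and at Kmt2d with Prkag1 held means of 3546, 8347, 8048.5 and 6548 bp at 37 °C. At 39 °C they held 2437, 2803, 5942 and 4739 bp. The Wnt1 promoter region held means of 7513 bp at 37 °C and 4290.5 bp at 39 °C. The surroundings were lower to a like degree: the 1 Mb on each side of the window was 34.6% covered at 37 °C and 17.6% at 39 °C, a ratio of 0.508 beside 0.517 in the window itself. In the region beside Wnt10b (chr15:98771954-98782355), a neighbouring Wnt gene, peaks covered 10402, 7115, 7048 and 8823 bp at 37 °C and 3077, 3069, 3094 and 1971 bp at 39 °C. At 39 °C the peak nearest to the Wnt10b start lay 1110 to 1284 bp away, just past the 1 kb limit, so the promoter of Wnt10b was called in 4 libraries at 37 °C and in 0 at 39 °C although the merged region was called in all 8. The distal peaks of Wnt1 numbered 12, 19, 18 and 15 at 37 °C and 11, 14, 13 and 10 at 39 °C, which overlap.

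The distal region near Wnt1 with the highest percentile (chr15:98767035-98769327), between genes and 21371 bp upstream by its summit, had a mean percentile of 87.3 at 37 °C and 77.6 at 39 °C and was called in all 8 libraries. In the same window 3 regions were restricted to 37 °C. One lay between genes 3925 bp upstream of Wnt1 (chr15:98785669-98786504), the one whose sequence holds none of the marked motifs, with percentiles of 33.7, 28.9, 19.5 and 36.7 at 37 °C. The other two (chr15:98740136-98741206 and chr15:98751643-98753558) lay in introns of Arf3, a small GTPase gene, with mean percentiles of 5.29 and 16.7.

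Fgf8 encodes the signal of the hindbrain side of the organizer (ENSMUSG00000025219.13, chr19:45736798-45742915, minus strand), and all 5 of its annotated starts lay at a peak in every library. Its promoter percentiles were 54.8, 54.8, 44.3 and 56.7 at 37 °C and 39.9, 32.4, 41.7 and 14.3 at 39 °C. The groups were apart, with 39 °C replicate 4 far below the rest, and with equal numbers of peaks they overlapped at 29.8 ± 5.09 and 22.3 ± 6.49 (SD, n = 4 each; exact permutation p = 0.143). Covered length was 22450, 13935, 12098 and 17700 bp at 37 °C and 11038, 11567, 11234 and 8874 bp at 39 °C, again without overlap, and the nearby 1 Mb on each side had a ratio of 39 °C to 37 °C of 0.629 beside 0.645 in the window. Much of this length lay at promoters of other genes. The regions at Npm3 and Mgea5 held means of 4265.5 and 5138 bp at 37 °C, and 3975 and 4339 bp at 39 °C. The Fgf8 promoter region held means of 1408.5 bp at 37 °C and 857 bp at 39 °C. Distal peaks numbered 10, 4, 5 and 8 against 3, 4, 4 and 3, and the groups met at 4. The distal region with the highest percentile at 37 °C (chr19:45736975-45739599), in an intron of Fgf8 itself, was called in all 8 libraries at a mean percentile of 55.8 at 37 °C and 22.0 at 39 °C. A region between genes 34931 bp downstream of the start (chr19:45707702-45708517) was restricted to 37 °C, with percentiles of 14.3, 4.15, 19.5 and 25.4.

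Gbx2, the hindbrain homeobox repressor (ENSMUSG00000034486.8, chr1:89927956-89931179, minus strand), had an open promoter, shared with D130058E05Rik, in all 8 libraries, with percentiles of 55.6, 59.5, 49.9 and 58.0 at 37 °C and 44.8, 41.7, 36.2 and 12.7 at 39 °C. The groups were apart with all peaks and overlapped with equal numbers, at 34.2 ± 6.09 and 24.4 ± 9.68 (SD, n = 4 each; exact permutation p = 0.229). Around it little else was called at 39 °C. Distal peaks numbered 5, 3, 3 and 6 at 37 °C and 2, 1, 0 and 0 at 39 °C, and covered length was 4897, 3191, 2734 and 5433 bp against 2342, 1686, 1341 and 1178 bp. The ratio of 39 °C to 37 °C for covered length, 0.403, was the lowest of the 9 members with all peaks, beside 0.760 in the 1 Mb on each side. With equal numbers of peaks it was 0.520, above 0.498 for Pax6, without overlap between the groups (exact permutation p = 0.0286, adjusted p = 0.0994).

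Of the 5 distal regions near Gbx2, 2 were restricted to 37 °C. The one with the highest percentile near this gene (chr1:89939917-89940672), 9365 bp upstream and between genes, had percentiles of 43.7, 44.6, 45.6 and 47.4 at 37 °C, which lie closer together than those of any other restricted region in the 9 windows. It stayed restricted with equal numbers of peaks, at 13.4, 22.3, 26.6 and 11.8, and its summit window was 66.7% G or C, against a median of 48.8% over distal regions. The second (chr1:89968207-89968824) lay in an exon of Asb18 with a mean percentile of 14.9.

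Pax2 is the first of its subfamily to be expressed at the organizer (ENSMUSG00000004231.15, chr19:44756045-44837871, plus strand). Its promoter had percentiles of 73.7, 72.3, 67.7 and 74.1 at 37 °C and 65.4, 64.4, 63.9 and 54.5 at 39 °C, under a peak that was 2980 to 3399 bp wide in all 8 libraries. The groups did not overlap, and with equal numbers of peaks they did, at 58.4 ± 2.35 and 56.5 ± 1.98 (SD, n = 4 each; exact permutation p = 0.286). Of its 3 annotated starts the most downstream was called in 2 libraries at 37 °C and 0 at 39 °C. A further start in RefSeq (position 44746601) was likewise called in 2 libraries at 37 °C and 0 at 39 °C.

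Distal peaks of Pax2 numbered 6, 7, 6 and 8 at 37 °C and 4 in each library at 39 °C. Those 4 were shared, because 4 distal regions of the window were called in all 8 libraries and the other 3 in no library at 39 °C. The highest of the shared regions (chr19:44708049-44710267), 46884 bp upstream and between genes, had a mean percentile of 91.95 at 37 °C and 84.9 at 39 °C, above the promoter of Pax2 itself. In the intron 26186 bp downstream of the start, the region whose sequence opens with the AP-1 motif (chr19:44782089-44782666) was restricted to 37 °C, at percentiles of 40.0, 20.1, 21.1 and 42.2. The difference in distal peaks with equal numbers of peaks was -1 (39 °C minus 37 °C; exact permutation p = 0.314).

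Pax5, known best as a B-cell factor and expressed at the organizer after Pax2 (ENSMUSG00000014030.15, chr4:44524757-44710487, minus strand), was open only at internal starts. Of its 7 annotated starts, 2 (positions 44704006 and 44703413, both with protein-coding transcripts) were called in 4 libraries at 37 °C and 2 at 39 °C, and the other 5 in none. The region called there (chr4:44702405-44704809) is also within 1 kb of a start of 5730488B01Rik, and its summit lies in an exon of that gene, so the peak cannot be assigned to one of them. The nearest peak to the most upstream start was 5678 to 45259 bp away. The RefSeq start shown above lies just upstream of it. The percentiles of the internal promoter were 47.9, 53.5, 47.5 and 58.0 at 37 °C and 32.3, 0, 8.5 and 0 at 39 °C, with widths of 2405, 1116, 593 and 1697 bp against 455, 0, 280 and 0 bp. The groups were apart, and they were apart with equal numbers of peaks too, at 19.8, 34.8, 29.2 and 29.6 against 18.8, 0, 0 and 0 (exact permutation p = 0.0286, adjusted p = 0.190). The margin there was narrow, since 37 °C replicate 1 and 39 °C replicate 1 lay at 19.8 and 18.8. Its window held 1 distal peak in 37 °C replicate 3 and none in the other libraries.

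Pax8, a thyroid and kidney factor that is also made in the hindbrain (ENSMUSG00000026976.15, chr2:24420560-24475599, minus strand), was open only at starts inside the gene, like Pax5 and Pax6. No peak lay within 1 kb of any of its 5 upstream starts (positions 24475097 to 24475599), where all its protein-coding transcripts begin, and the nearest peak to the most upstream one was 4046 to 14424 bp away. The start called in all 8 libraries (position 24445900) belongs to a processed transcript inside the gene, in an intron of Pax8 that the overlapping gene Gm13415 shares. A further start, of a transcript with a retained intron, was called in 4 libraries at 37 °C and 1 at 39 °C. With only the starts of protein-coding transcripts, Pax8 had no open promoter at either temperature.

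At the internal start the percentiles of Pax8 were 70.1, 64.8, 65.3 and 72.5 at 37 °C and 70.6, 70.1, 70.1 and 61.0 at 39 °C, which overlap. With equal numbers of peaks they were 53.9, 50.6, 53.2 and 53.9 against 64.8, 64.4, 62.7 and 61.0, higher in every library at 39 °C by a mean of 10.3 percentile points (exact permutation p = 0.0286, adjusted p = 0.190). Distal peaks, 14, 13, 12 and 13 against 14, 13, 13 and 11, had means of 13 and 12.75. The highest distal region (chr2:24452116-24454411), in an intron, was called in all 8 libraries at 87.8 and 81.8. A weaker intronic region 8251 bp downstream of the upstream start (chr2:24467094-24467834) had percentiles of 17.4, 11.8, 0 and 26.6 at 37 °C and 37.1, 33.7, 20.7 and 20.6 at 39 °C, and with equal numbers of peaks it was called in 0 and 4 libraries.

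The most upstream start was without a peak in 3 members, Pax5, Pax6 and Pax8, while another start was called in at least 2 libraries. Among the 12849 genes with at least 2 starts and a promoter peak in at least 2 libraries, 5.91% showed this arrangement. Of the 9 members, 8 are such genes. The number of annotated starts, which ranges from 1 for Wnt1 to 24 for Pax6, bears on this count, and its part was not tested.

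Pax3, a factor of dorsal neural tube and neural crest (ENSMUSG00000004872.15, chr1:78101267-78197134, minus strand), had the highest promoter percentiles of the 9. They were 89.3, 88.0, 86.8 and 90.1 at 37 °C and 84.3, 85.4, 83.7 and 81.6 at 39 °C, and all 3 of its starts were called in every library. The groups were apart with all peaks, and with equal numbers of peaks they overlapped at 83.1 ± 0.629 and 81.3 ± 1.25 (SD, n = 4 each; exact permutation p = 0.0571). Its window was also rich in distal peaks, with 16, 15, 15 and 18 at 37 °C and 11, 13, 12 and 12 at 39 °C, more per kb than in the windows of 84.6% and 88.8% of all genes. Covered length, at 23935 ± 4409 and 19859 ± 1833 bp (SD, n = 4 each), overlapped between the groups (exact permutation p = 0.171).

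The strongest distal region of Pax3 (chr1:78215540-78220555), 20028 bp upstream and between genes, was called in all 8 libraries at mean percentiles of 88.1 and 84.0, and 10 of its 14 distal regions were called in all 8. Restricted to 37 °C were a region past the end of the gene (chr1:78070489-78071275), 126267 bp from the start, and one in an intron (chr1:78181820-78183161). The first had percentiles of 50.3, 37.3, 42.0 and 52.0 and stayed restricted with equal numbers of peaks, at 23.6, 12.0, 21.8 and 19.4. The second was weaker, at a mean percentile of 17.8.

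Pax7, the partner of Pax3 in dorsal neural tube and the factor of muscle stem cells (ENSMUSG00000028736.13, chr4:139737062-139833528, minus strand), had the weakest promoter of the 9. Its percentiles were 2.8, 0.8, 0 and 2.0 at 37 °C and 0, 5.3, 4.3 and 0 at 39 °C, the peak was 301 to 472 bp wide where it was called, and with equal numbers of peaks it was called in no library. Yet its window held 8, 5, 7 and 9 distal peaks at 37 °C and 7, 6, 9 and 4 at 39 °C. The groups overlapped widely (exact permutation p = 0.714). The distal region that was highest at 37 °C (chr4:139715804-139717640), 116815 bp from the start past the end of the gene, was called in all 8 libraries at 79.0 and 69.8. Next to it a narrow region (chr4:139719077-139719454), with the percentiles 35.4, 28.0, 19.5 and 40.9, was restricted to 37 °C, and 2 distal regions inside the gene had a higher mean percentile at 39 °C.

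Pax6, the eye and forebrain factor (ENSMUSG00000027168.21, chr2:105668900-105697364, plus strand), had a single region in its whole 128465 bp window. This region (chr2:105675963-105676782) was called in all 8 libraries and lay within 1 kb of 7 of its 24 starts, while the most upstream start was 7063 to 7317 bp from it. The percentiles were 38.1, 38.7, 44.3 and 48.7 at 37 °C and 24.4, 12.9, 30.5 and 9.3 at 39 °C, and the widths 818, 655, 661 and 746 bp against 552, 392, 541 and 340 bp. Both sets were apart, and with equal numbers of peaks the percentiles overlapped at 14.4 ± 8.17 and 8.01 ± 5.65 (SD, n = 4 each; exact permutation p = 0.257). Peaks covered 0.560% of the window at 37 °C and 0.355% at 39 °C, less than the median of 6.41% and 4.91% over all genes.

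Ordered by mean percentile at 37 °C, the promoters ran from Pax3 (88.5 ± 1.46) and Wnt1 (85.0 ± 2.00) through Pax2 (71.9 ± 2.95), Pax8 (68.2 ± 3.74), Gbx2 (55.8 ± 4.24), Fgf8 (52.6 ± 5.64), Pax5 (51.7 ± 5.01) and Pax6 (42.4 ± 5.00) to Pax7 (1.42 ± 1.27; SD, n = 4 each). Values overlapped between Pax3 and Wnt1, between Pax2 and Pax8, and between each gene and the next from Gbx2 to Pax6. These ranks are among all peaks of a list, not among promoters. At 37 °C the mean was above that of 63.2% of all protein-coding genes for Pax3 and 56.5% for Wnt1. For the other members it was above that of 32.1% (Pax7) to 46.5% (Pax2) of genes. At 39 °C the order was Pax3 (83.7 ± 1.59), Wnt1 (80.6 ± 2.60), Pax8 (67.9 ± 4.65), Pax2 (62.1 ± 5.08), Gbx2 (33.8 ± 14.5), Fgf8 (32.1 ± 12.5), Pax6 (19.3 ± 9.89), Pax5 (10.2 ± 15.3) and Pax7 (2.405 ± 2.81), and values overlapped between Pax3 and Wnt1, between Pax8 and Pax2, and between each gene and the next from Gbx2 to Pax7.

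Genes that work with the organizer factors were read by the same promoter rule. Of 21 organizer partners, 19 had an open promoter at 37 °C and 15 at 39 °C, against 67.2% and 62.9% of all genes, 14 were called in all 8 libraries, against 59.9%, and 6 in more libraries at 37 °C, against 7.97%. Otx2, the midbrain counterpart of Gbx2, had no promoter peak in any library. Otx1 was called in all 8 libraries, at mean percentiles of 98.3 at 37 °C and 97.6 at 39 °C. Wnt10b was called in 4 libraries at 37 °C and 0 at 39 °C, Fgf17, an organizer growth factor, in 3 and 0, Wnt5a, a signal of midbrain dopaminergic precursors, in 3 and 0, Lmx1b, a roof plate and dopaminergic homeobox gene, in 4 and 2, and Cnpy1, an Fgf signalling modulator, in 3 and 1. The engrailed genes En1 and En2, direct partners of the Pax2 subfamily at the organizer, were called in all 8 libraries, at mean percentiles of 80.4 and 67.7 at 37 °C and 77.7 and 58.9 at 39 °C, and the values of En2 were lower in every library at 39 °C. With equal numbers of peaks the means of En1 were 71.04 and 74.2 and those of En2 52.1 and 52.6. Among all 21, 10 had percentiles lower in every library at 39 °C and 1 higher, against 35.2% and 0.337% of all genes. The same counts with equal numbers of peaks were 3 lower and 4 higher, against 10.3% and 4.73%.

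Of 13 other Pax genes and partners of the Pax network, 9 had an open promoter at each temperature and 8 were called in all 8 libraries, near the same shares of all genes. Pax1 and Pax4, of the sclerotome and the pancreas, and Dach2 were called in none, and Eya2, a cofactor of this network, was called in 4 libraries at 37 °C and 2 at 39 °C. Percentiles were lower in every library at 39 °C for 4 of the 13 and higher for 0, against 35.2% and 0.337% of all genes, and with equal numbers of peaks lower for 0 and higher for 2, against 10.3% and 4.73%.

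The label of the cells as neural precursors was checked at marker promoters, for which the shares of all genes are again 67.2% open at 37 °C, 62.9% at 39 °C and 59.9% in all 8 libraries. Of 10 neural precursor markers, 7 were open at 37 °C and 6 at 39 °C, and 5 were called in all 8 libraries. The list was split: Nes, Sox2, Vim and Notch1 were called in all 8 libraries at mean percentiles of 91.9, 97.1, 99.4 and 94.9 at 37 °C. Msi1 was also called in all 8, but at 48.7 at 37 °C. Sox1 was called in 4 libraries at 37 °C and 3 at 39 °C, with a mean percentile of 29.6 at 37 °C. Sox3 and Fabp7 had no peak in any library and Hes5 was called in 2 and 0. Of 10 mesenchymal or fibroblast markers, 9 were called in all 8 libraries and only Thy1 in none. Of 5 neural crest markers, 5 were open at 37 °C and 4 at 39 °C, 3 were called in all 8, and Foxd3 was called in 3 and 0. Mean percentiles at 37 °C had a median of 39.1 over the neural precursor markers, 91.9 over the mesenchymal and 90.5 over the neural crest markers, beside 55.8 over the 9 members. The part of these cell states in the results was not tested.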

How the data were processed

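Chromatin accessibility was measured in 8 libraries, 4 at each temperature. The authors aligned paired reads to mm10 with Bowtie2 (2.4.1), removed duplicates with SAMtools (1.15.1) and Picard (2.26.11), and called peaks with MACS3 (3.0.0a7) separately in each library, without a control library or local background, at a q-value cutoff of 0.05 per the file headers. Their methods describe removal of blacklisted regions with bedtools (2.30.0), but peak names in the deposited lists run without gaps, so whether these lists were filtered is not known, and peak numbers and percentiles may include such regions. The deposited pileup signal is coverage in fragments at the summit, not scaled for depth, and the deposited fold enrichment is a ratio to one genome-wide background. The deposited −log10 p-value and −log10 q-value come from the same caller, and only −log10 q and position were used here. Depth was taken from the file headers as fragments kept after the caller dropped 15 to 37% of them as redundant. It sets how weak a peak can be called.

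Peaks were assigned to protein-coding genes of GENCODE M21 (gene body plus 50 kb; promoter within 1 kb of a start) with Python (3.11.15), numpy (2.4.6), pandas (2.3.3) and scipy (1.17.1). Peaks overlapping by at least 1 bp were merged, and regions in at least 2 libraries were kept. Values were compared by the exact permutation test over all 70 assignments, two-sided, and presence by Fisher's exact test, both with Benjamini-Hochberg adjustment over 21938 genes. The scripts were tested on simulated data. Motifs, 11 in all, were searched in 201 bases at each summit. All 9 members are named. Named regions are those restricted to 1 temperature and the distal region with the highest mean percentile of each member, and genes of other lists are named where called in 0 libraries or in at least 2 more at 1 temperature. An item under this rule is not reported here. En1, En2, Otx1, Sp5, Wnt3a, Fgf18, Nes, Sox1, Sox2, Msi1, Vim and Notch1 and the other regions named were chosen after their values were seen. The members and lists were chosen with earlier results of these data known. Alternatives were peaks of −log10 q at least 5, equal numbers of peaks, the 6 libraries with fewer than 100 M fragments, flanks of 20 and 100 kb, promoters of 5 kb, protein-coding starts, 50% of a region covered, summit windows of 100 bp on each side, a replicate block, and each library left out in turn. Other assays of the study were not used here.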

Additional observations from a re-analysis of the deposited data

Results flagged for a closer look

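Among 50 sets of 4 values, 4 held a library far from its group. Dixon's rule flags about 1 in 20 such sets by chance. The Pax2 promoter percentile of 39 °C replicate 4 was 54.5, below the 63.9 to 65.4 of the other libraries, and the Pax8 promoter percentile of the same library was 61.0, below 70.1 to 70.6. That library had the shortest list. The Fgf8 promoter percentile of 37 °C replicate 3, the library with the fewest fragments, was 44.3, below 54.8 to 56.7. The Pax5 window held 1 distal peak in 37 °C replicate 3 and 0 in the other libraries at 37 °C.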

How the results depend on the processing

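Some counts depended on the processing. With equal numbers of peaks, members with fewer distal peaks in every library at 39 °C numbered 0 in place of 3, members with a lower promoter percentile 1 in place of 7, regions restricted to 37 °C 2 in place of 10 and regions restricted to 39 °C 1 in place of 0. Regions restricted to 37 °C numbered 5 with flanks of 20 kb and 18 with 100 kb, where the windows held 57 and 152 regions, and summit windows gave 2 regions restricted to 39 °C. The other 91 recomputed counts stayed within 1.5 times the value reported. Leaving out each library in turn gave 3 to 4 members for distal peaks, 6 to 8 for covered length, 7 for promoter percentile, 7 to 9 with an open promoter and 10 to 14 restricted regions at 37 °C.

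Differences that changed sign belonged to Pax7, Pax8 and Wnt1. For distal peaks (39 °C minus 37 °C) they were 0.25 for Pax8 with −log10 q at least 5, 0.75 for Pax7 and 0.25 for Wnt1 with equal numbers of peaks, and 0.5 for Pax7 and 0.25 for Pax8 with the 6 shallower libraries. Leaving out each library in turn gave -0.667 to 0.333 for Pax8 and -1.58 to 0.0833 for Pax7. For the promoter percentile of Pax8 they were 0.900 with −log10 q at least 5, 10.3 with equal numbers of peaks, 2.88 with the 6 shallower libraries and -1.37 to 2.08 with each library left out in turn. The cause was not tested. Of the values of single members, 17 came to overlap between the groups, 11 came apart, 14 changed sign and 336 did none of these. Among the last, some differences became 0, such as the distal peaks of Fgf8 with equal numbers of peaks. A single library at 37 °C decided whether some groups overlapped: without replicate 1 the distal peaks of Wnt1 (difference -5.33), without replicate 2 those of Fgf8 (-4.17) and without replicate 3 the covered lengths of Pax3 (-5991 bp) and Pax8 (-7259 bp) did not overlap.

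Whether the replicate numbers pair the samples is not known. Deviations of the same-numbered libraries correlated at 0.437, -0.191, -0.153 and -0.271, within the range of -0.478 to 0.509 of the other pairs. So few correlations cannot decide it. With the numbers as a replicate block, 4 members had fewer distal peaks at 39 °C in every pair, 7 covered less and 7 had a lower promoter percentile, where an exact sign-flip test of 4 pairs cannot give a p below 0.125. The 6 shallower libraries, 2 against 4, cannot give one below 0.0667. Peak lists carry no read counts, so a region not called at these depths may still be open.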

Other observations

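The 66 distal regions of the 9 windows were richer in G and C than distal regions in general, with a median of 52.5% against 48.8% in the 201 bases at the summit. The GC box GGGCGG was found in 16.7% of them and in 6.03% of the 62695 distal regions searched. AP-1 (TGANTCA) was found in 27.3% against 34.3%, RUNX (TGTGGT) in 21.2% against 28.0%, TEAD (GGAATG) in 19.7% against 19.04%, the TCF/LEF motif (CTTTGA) in 15.2% against 14.4%, the OTX motif (TAATCC) in 6.06% against 5.84%, the homeodomain motif (TAATTA) in 4.55% against 3.25% and the E-box (CANNTG) in 71.2% against 70.7%. The CCAAT box (CCAAT) was found in 21.2% against 22.4%, the TATA box (TATAAA) in 6.06% against 7.26% and the p53 decamer in 7.58% against 7.95%. Regions of one window share base composition, and no test was run. Of the 10 regions restricted to 37 °C, 5 held the E-box, 3 AP-1, 3 RUNX and 3 the TCF/LEF motif, 1 each the GC box, CCAAT box, TATA box and p53 decamer, and 0 the TEAD, homeodomain or OTX motif.

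For the 7 members called in all 8 libraries, which leaves out Pax5 and Pax7, the promoters most alike by the mean absolute difference in percentile over the 8 libraries, were those of Dock1 for Pax3 (0.343 percentile points), Medag for Wnt1 (0.368), Efhd1 for Pax2 (0.903), Cxcl17 for Pax8 (1.04), Tesc for Fgf8 (1.94), Ptchd1 and Gm15155 at the same distance for Gbx2 (2.16) and Mcoln2 for Pax6 (2.83).

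In the list of organizer partners, Wnt3a and Sp5, a pair of genes of the Wnt pathway, were called in all 8 libraries but at lower mean percentiles at 39 °C, 50.5 against 78.2 for Wnt3a and 11.8 against 39.0 for Sp5. The means with equal numbers of peaks were 43.0 against 68.7 and 1.53 against 9.72. Fgf18, an organizer growth factor, was higher at 39 °C in every library, at 97.8 against 95.4, and remained higher in its mean with equal numbers of peaks, at 97.5 against 93.2.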
